A study of Mus musculus with 6 samples.

Results

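The early growth response (EGR) genes Egr1 to Egr4, the orphan nuclear receptor genes Nr4a1, Nr4a2 and Nr4a3, and the EGR corepressor genes Nab1 and Nab2 were examined in mouse Th2 cells. The members were chosen by gene symbol, taking every probe set that names the gene alone, and they make up 9 of the 18194 genes measured, with 20 probe sets. RNA was hybridized to 6 Affymetrix arrays covering the mouse genome, 1 array for each of 3 conditions in each of 2 cultures, for a study of how GATA3, the lineage factor of Th2 cells, maintains their identity. Values are signals, that is, linear intensities in arbitrary units per probe set.

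All cells came from splenic CD4 T cells of C57BL/6 mice that were activated through the TCR and CD28 and kept for 5 days with IL-2 at 25 U/ml plus IL-4 at 100 U/ml. Cells taken after this cycle are called Th2-1st. Th2-4th cells went through further cycles, in which a rest without added cytokines was followed by TCR activation with IL-2 and a monoclonal antibody (mAb) that blocks IL-4, so that the cultures differ in age, in the number of activations and in the blocking of IL-4. All cells of both cultures were nucleofected with siRNA, and each siRNA group is a whole transfected population. The control cells received a nontargeting siRNA, and the other cells received a single siRNA against Gata3, so the effect of this siRNA on other transcripts cannot be told apart from that of GATA3. At 24 h after transfection, control cells were either left unstimulated or stimulated for 4 h on immobilized anti-TCR mAb, and GATA3 siRNA cells were stimulated in the same way. No unstimulated GATA3 siRNA array was analysed here.

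EGR proteins are zinc finger transcription factors, and NR4A proteins are nuclear receptors that act without a known natural ligand in T cells. Both families are immediate early genes, transcribed within minutes of TCR engagement from kinase and calcium signals without new protein synthesis. In T cells, EGR2 and EGR3 are known for restraint of activation and for the induction of Fas ligand, NR4A1 for negative selection in the thymus, and all NR4A proteins for regulatory T cell development and for dysfunction after chronic stimulation. NAB1 and NAB2 bind EGR1, EGR2 and EGR3 and recruit a chromatin remodeling complex that represses their targets.

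With 1 array per condition, replicates cannot check any difference, and p-values were not computed. In place of a replicate error, each log2 ratio is set beside a spread, the robust SD of the same log2 ratio among the 500 genes nearest in signal. This spread contains real changes of those genes and is a description only. A gene was called changed over 2-fold or under 0.5-fold. The median signal of an array ran from 61.8 to 74.2 and serves as the line under which a signal is read as low, and the highest signal of an array was 36674 to 58757. In these bulk cultures, fewer cells that express a gene and less RNA per cell cannot be told apart.

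The 7 T cell markers measured were above the array median on all 6 arrays, and Cd4 among them read from 188 to 882. Their summed signal was 48161 to 56673 in the Th2-1st culture and 72443 to 84877 in the Th2-4th culture. Of the markers of other cells, at most 1 of 4 for B cells, 3 of 6 for myeloid cells, 2 of 3 for CD8 T and NK cells and 2 of 4 for mast cells and basophils were above the median, with summed signals of 108 to 199, 339 to 522, 251 to 613 and 112 to 1206. Gata3 itself read 3312 in unstimulated, 4883 in stimulated and 1798 in GATA3 siRNA Th2-1st cells, and 4846, 9261 and 2853 in the Th2-4th culture. The knockdown was therefore -1.44 and -1.70 on the log2 scale.

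The first question was how far the members answered the TCR in each culture. Of the 9 members, 7 in the Th2-1st culture and 8 in the Th2-4th culture were over 2-fold after 4 h, where 17.5% and 18.7% of all genes were, and 0 were under 0.5-fold, where 16.9% and 21.6% of all genes were. The median log2 ratio of the members was 5.20 and 5.43, against -0.01 and -0.10 for all genes. Egr1, Egr2, Egr3, Nr4a1, Nr4a2 and Nr4a3 carried the largest ratios, Nab2 a smaller one and Nab1 none. Across these 6 genes the signals lay between 6.63 and 603 on the unstimulated arrays and between 3646 and 26871 on the stimulated arrays, so the states did not overlap in any of them.

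Egr2 read 83.1 in unstimulated and 10921 in stimulated Th2-1st cells, and 101 and 26871 in the Th2-4th culture. The unstimulated signals lay just above the array medians, and the stimulated ones were 131-fold and 266-fold higher. In log2 terms the response was 7.04 (spread 0.74) and 8.05 (spread 0.86). The other Egr2 probe set gave 6.84 and 8.41.

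Egr3, the EGR factor that most often acts with EGR2 in T cells, read 207 and 7574 in the Th2-1st culture and 590 and 25508 in the Th2-4th culture. Its response was 36.6-fold and 43.3-fold. The other probe set of Egr3 stayed between 85.4 and 130 on all 6 arrays and gave log2 ratios of -0.30 and 0.28, so the 2 probe sets disagreed and the response of Egr3 rests on the brighter one. Egr1, the founding member of the family and an early target of ERK signaling, read 199 and 6287 in the Th2-1st culture and 603 and 22845 in the Th2-4th culture, a response of 31.6-fold and 37.9-fold. Both genes were already above the array median before stimulation, which Egr2 was by a narrow margin only.

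Egr4 stood apart from the other EGR genes. It read 37.8, 53.3 and 74.7 in unstimulated, stimulated and GATA3 siRNA Th2-1st cells and 10.8, 43.7 and 16.7 in the Th2-4th culture, and only the value of 74.7 was above its array median. Its log2 response was 0.50 in the Th2-1st culture and 2.02 in the Th2-4th culture, where the spread at this signal was 0.83 and 1.94. With the array median in place of low signals, the second value became -0.03, so the over 2-fold call for Egr4 in the Th2-4th culture rests on signals that were low on both arrays.

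Nr4a1, which encodes NUR77, a widely used reporter of TCR signal strength, read 99.5 and 6860 in the Th2-1st culture and 111 and 14331 in the Th2-4th culture. The unstimulated signals of both cultures were close to the array median, and stimulation brought 69.0-fold and 130-fold. Nr4a2, which encodes NURR1, a factor also needed by dopamine neurons, read 69.9 and 3646 in the Th2-1st culture and 139 and 8011 in the Th2-4th culture, a response of 52.2-fold and 57.7-fold. Its 3 other probe sets with stimulated signals over 500 gave log2 responses of 2.76 to 5.73 in the Th2-1st culture and 4.71 to 4.90 in the Th2-4th culture, and the 2 dimmest sets stayed at or below 126 on every array.

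Nr4a3, which encodes NOR1, read 6.63 and 10215 in the Th2-1st culture and 67.0 and 24555 in the Th2-4th culture. Both unstimulated signals were under the array median, so the fold depends on values that cannot be told from background. Against the array median in their place, the response was at least 163-fold in the Th2-1st culture and at least 331-fold in the Th2-4th culture. The 2 other probe sets of Nr4a3 were dim, with signals from 1.04 to 155, and were not read for the response.

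With the array median in place of low signals, Nr4a3 ranked 11 among the 18194 genes by response in the Th2-1st culture and 7 in the Th2-4th culture. Egr2 ranked 18 and 9, Nr4a1 25 and 17, Nr4a2 28 and 33, Egr3 39 and 42, and Egr1 44 and 45.

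**Figure D1:**
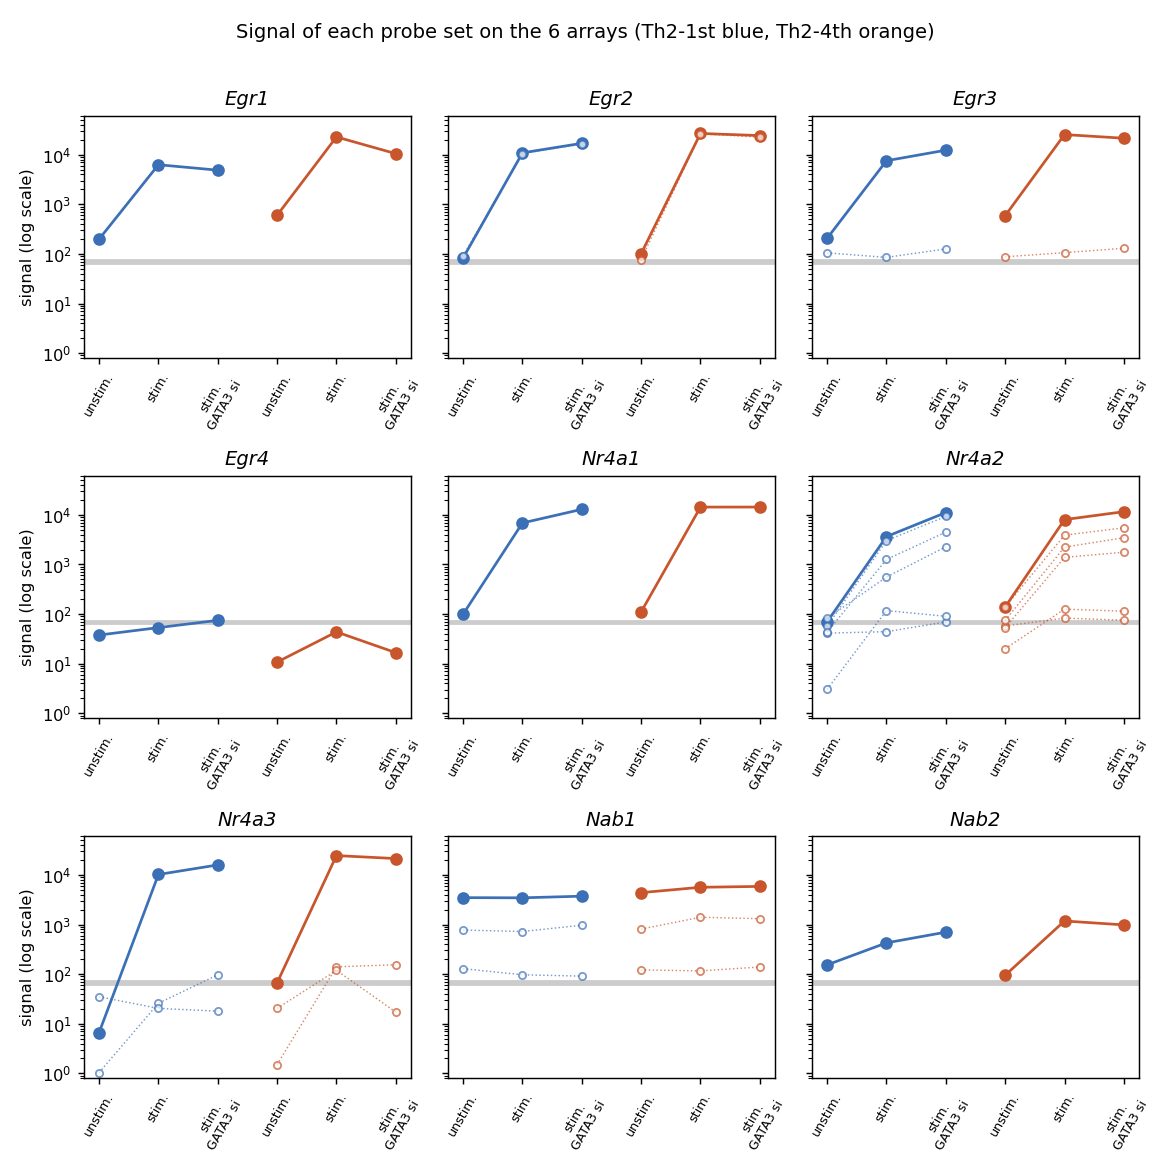
Signal of every probe set (log axis, arbitrary units) on the 6 arrays for each of the 9 genes; filled points with solid lines are the probe set used for the gene, open points with dotted lines the others, and the grey band spans the array medians of 61.8 to 74.2. Th2-1st cells are blue and Th2-4th cells orange, each in the order unstimulated, stimulated and stimulated with GATA3 siRNA; Egr2 runs from 83.1 to 10921 and from 101 to 26871 with stimulation, whereas Nab1 stays between 3459 and 5874.

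The corepressor genes answered unequally. Nab1 read 3486 and 3459 in the Th2-1st culture and 4400 and 5641 in the Th2-4th culture, which gave log2 ratios of -0.01 and 0.36, within the spread of 0.64 and 0.82. Its second brightest probe set gave -0.10 and 0.79. Nab2, which is itself known as an EGR target and so closes a feedback loop, read 154 and 428 in the Th2-1st culture and 95.2 and 1180 in the Th2-4th culture. The Nab2 response was therefore 2.78-fold in the Th2-1st culture (log2 1.47, spread 0.92) and 12.4-fold in the Th2-4th culture (log2 3.63, spread 0.99).

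**Figure D2:**
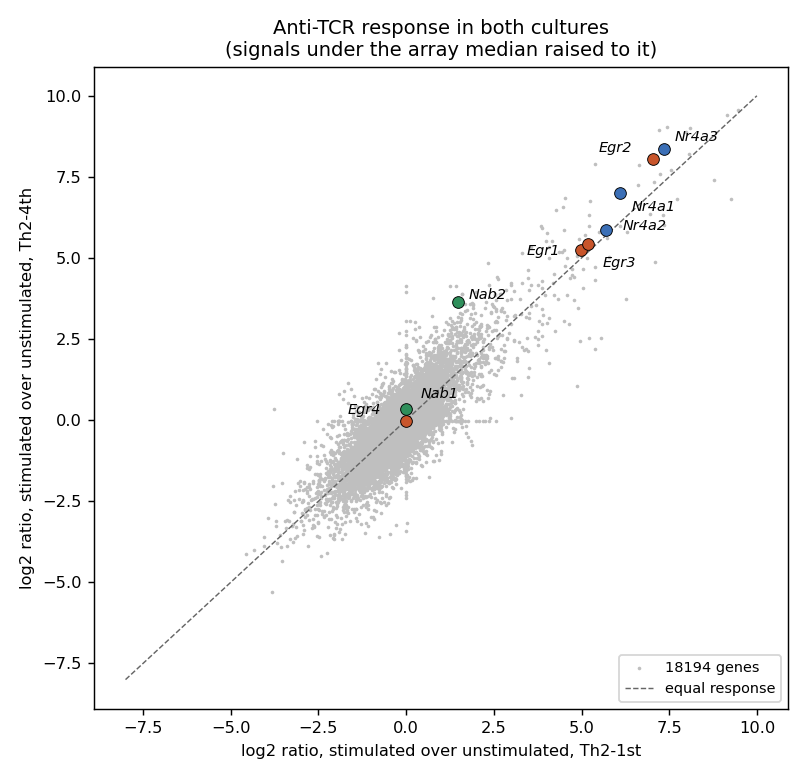
Log2 ratio of stimulated over unstimulated control cells in Th2-1st (horizontal axis) and Th2-4th cells (vertical axis), with the array median in place of any lower signal; grey points are all 18194 genes, orange points EGR, blue points NR4A and green points NAB genes, and the dashed line marks an equal response. Nr4a3 (7.35 and 8.37) and Egr2 (7.04 and 8.05) lie farthest out among the members, Nab2 (1.47 and 3.63) lies above the line, and Egr4 and Nab1 lie near the origin.

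To see what the promoters of genes that moved together hold, the 250 bases before the annotated start were taken from RefSeq (GRCm38.p6), where 7 of the 9 members had an entry and Egr1 and Egr3 had none. The motifs searched on both strands were the cAMP response element TGACGTCA and its core TGACG, the CArG box bound by serum response factor, the EGR sites GCGTGGGCG and GCGGGGGCG, and the NR4A site AAAGGTCA. The core is contained in the full element, so the counts of these motifs overlap. Nr4a1, Nr4a2 and Nr4a3 each held 4 copies of the core TGACG, whereas 3 or more copies were found in 0.688% and at least 1 copy in 17.8% of the 32851 promoter windows of the table. The stretches of Nr4a1 and Nr4a2 are shown in full for that reason, and for Nr4a3, Egr2 and Nab1 the 30 bases with the most motif letters are shown. Capitals mark the motif letters, and each sequence is written 5' to 3' on the strand of the gene.
Nr4a1 (chr15:101266596-101266845, plus strand): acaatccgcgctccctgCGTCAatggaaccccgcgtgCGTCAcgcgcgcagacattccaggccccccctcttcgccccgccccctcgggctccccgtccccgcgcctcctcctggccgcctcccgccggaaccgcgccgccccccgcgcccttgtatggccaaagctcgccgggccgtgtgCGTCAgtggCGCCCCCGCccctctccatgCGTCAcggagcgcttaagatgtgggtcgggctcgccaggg
Nr4a2 (chr2:57124004-57124253, minus strand): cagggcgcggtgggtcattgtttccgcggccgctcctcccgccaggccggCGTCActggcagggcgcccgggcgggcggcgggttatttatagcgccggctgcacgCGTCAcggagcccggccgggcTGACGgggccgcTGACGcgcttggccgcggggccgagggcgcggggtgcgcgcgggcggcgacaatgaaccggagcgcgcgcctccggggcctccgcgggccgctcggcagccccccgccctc
Nr4a3 (chr4:48045067-48045096, plus strand): aggagggTGACGtagcgtcccatgtCGTCA
Egr2 (chr10:67537789-67537818, plus strand): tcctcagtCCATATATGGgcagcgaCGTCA
Nab1 (chr1:52500567-52500596, minus strand): ccgcggcCGCCCACGCcgggatctgCGTCA

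The 4 cores lay 233, 213, 69 and 40 bases before the start in Nr4a1, 200, 144, 123 and 111 bases before it in Nr4a2, and 231, 213, 205 and 147 bases before it in Nr4a3. Egr2 had 5 annotated starts, and its windows, which overlap in part, held 2 distinct CArG boxes. Of all windows, 1.47% held a CArG box. The Egr2 site shown pairs a CArG box with a TGACG core. Nr4a1 also held the EGR site GCGGGGGCG on the opposite strand, 60 bases before its start, and Nab1 held this site and 2 copies of GCGTGGGCG. Those sites occurred in 2.57% and 0.536% of all windows. Egr4 held 2 cores, Nab2 held none of the motifs, and no member held the full element or the NR4A site, which 1.55% and 1.34% of all windows held. These matches describe the letters of the window and no binding was measured. The shares were taken over all windows without regard to their base composition.

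The genes around the members were described by 5 lists. For each list the background is the share of all genes, 17.5% and 18.7% over 2-fold and 16.9% and 21.6% under 0.5-fold in the Th2-1st and Th2-4th cultures. Of 30 other immediate early and early genes of TCR signaling, such as FOS, JUN and dual specificity phosphatase genes, 21 in the Th2-1st culture and 22 in the Th2-4th culture were over 2-fold and 0 were under 0.5-fold, with medians of 1.76 and 1.93. Among those above the array median on both arrays, the largest ratios belonged to Gadd45b (log2 4.20), which limits stress kinase signaling, and Rgs2 (4.07), which limits G protein signaling, in the Th2-1st culture. In the Th2-4th culture they belonged to Atf3 (4.17), a stress-induced repressor, and Myc (4.12), which drives growth. Genes of the list with a low unstimulated signal reached the range of the leading members, of which Egr1 was the smallest with 4.98 and 5.24. Fosl1, an AP-1 subunit gene, gave 5.13 and 5.18, and Fos gave 3.56 in the Th2-1st and 5.49 in the Th2-4th culture, where it read 66.0 and 2975. With the array median in place of low signals Fosl1 came to 3.91 and 3.25, whereas Fos in the Th2-4th culture came to 5.33 and stayed above Egr1. Fosl1 and Fos were added to these examples after their values were seen.

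The factors that carry TCR signals to these genes did not share the response. Of the 13 measured members of a list of 16 such factors, which held MAP kinases, SRF and its partners, CREB and MEF2 factors, 1 was over 2-fold and 1 under 0.5-fold in the Th2-1st culture, and 0 and 2 in the Th2-4th culture. The medians were -0.46 and -0.39. Crtc3, a CREB coactivator, gave -1.51 and -1.44, and Elk4, a partner of SRF, gave -1.07 in the Th2-4th culture. The factor over 2-fold was Elk1, a related partner of SRF, with 1.49 from a low signal of 50.9. Among 7 chromatin partners of NAB2, Chd3 alone passed the threshold, with -1.33 in the Th2-1st culture.

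Of 17 genes linked to EGR2 and EGR3 in T cells, 7 were over and 3 under the thresholds in the Th2-1st culture, and 9 and 3 in the Th2-4th culture. The counts under 0.5-fold are near the 16.9% and 21.6% of all genes. Fasl, the death ligand, rose by 4.97 in the Th2-1st culture, from 118 to 3684, and by 2.45 in the Th2-4th culture, from 2194 to 11978. Crtam, an adhesion receptor, rose by 8.03 from a low signal of 12.7 and by 5.62, and Socs3, an inhibitor of cytokine signaling, by 1.58 and 3.62. The cell cycle inhibitor gene Cdkn1b went the other way, by -2.55 and -3.58, as did Id3, an antagonist of E proteins, by -3.94 and -3.03. Of 12 measured genes linked to NR4A factors, 5 and 5 were over 2-fold and 0 and 1 under 0.5-fold, the latter being Rxrb, a retinoid receptor gene, with -1.21. The checkpoint receptor gene Pdcd1 rose by 3.77 and 2.73 and Ctla4 by 2.01 and 2.01, and Havcr2 rose by 6.34 from a low signal of 59.6 and by 3.75. These links are background knowledge, and binding by EGR or NR4A proteins was not measured.

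The next question was what GATA3 siRNA did to the members in stimulated cells. In the Th2-1st culture only Nr4a2 was over 2-fold, or 1 of 9, where 13.3% of all genes were, and 0 were under 0.5-fold, where 7.49% were. In the Th2-4th culture 0 members were over 2-fold and 2, Egr1 and Egr4, were under 0.5-fold, where 10.6% and 10.6% of all genes were. The member counts are therefore near the background. The median log2 ratio of the members was 0.64 in the Th2-1st culture and -0.20 in the Th2-4th culture, against 0.05 and 0.01 for all genes. Among genes above the array median on at least 1 array of the pair, 4.41% were over and 2.26% under in the Th2-1st culture, and 3.00% and 3.49% in the Th2-4th culture.

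In stimulated Th2-1st cells, Nr4a2 read 3646 under control siRNA and 11130 under GATA3 siRNA, a 3.05-fold difference (log2 1.61, spread 0.14). Its other 3 probe sets with bright stimulated signals gave 1.62, 1.83 and 2.02. In the Th2-4th culture Nr4a2 read 8011 and 11583, and its log2 ratio was 0.53 (spread 0.17), with 0.35 to 0.63 in the other bright probe sets. Nr4a2 was thus higher with GATA3 siRNA in both cultures, and over 2-fold in the Th2-1st culture only, with the bright probe sets on the same side of 0.

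Egr1 was the member that was lower with GATA3 siRNA in both cultures. Its signal was 6287 under control siRNA and 4888 under GATA3 siRNA in the Th2-1st culture (log2 -0.36, spread 0.14), and 22845 and 10517 in the Th2-4th culture (log2 -1.12, spread 0.17). The Th2-4th value is 0.460-fold. With quantile normalization of the arrays it became -0.93, which no longer passed the threshold. Egr1 has 1 probe set on this array, so the value has no second measurement.

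The other EGR and NR4A genes with a response were higher with GATA3 siRNA in the Th2-1st culture and near or below the control in the Th2-4th culture. Nr4a1 read 6860 and 12916 in the Th2-1st culture (log2 0.91, spread 0.11) and 14331 and 14355 in the Th2-4th culture (log2 0.00, spread 0.17). Egr3 read 7574 and 12354 in the Th2-1st culture (log2 0.71, spread 0.11) and 25508 and 21511 in the Th2-4th culture (log2 -0.25, spread 0.17). None of these ratios passed the threshold.

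Egr2 read 10921 and 16994 in the Th2-1st culture (log2 0.64, spread 0.10) and 26871 and 24331 in the Th2-4th culture (log2 -0.14, spread 0.17). Its other probe set agreed to within 0.07, at 0.63 and -0.21. Nr4a3 read 10215 and 15916 in the Th2-1st culture (log2 0.64, spread 0.10) and 24555 and 21382 in the Th2-4th culture (log2 -0.20, spread 0.17). The 3 Th2-4th ratios below 0 were all smaller than 0.25 in size, and that of Egr2 lay within its spread.

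Nab2 read 428 and 703 in the Th2-1st culture (log2 0.72, spread 0.28) and 1180 and 985 in the Th2-4th culture (log2 -0.26, spread 0.28). Nab1 read 3459 and 3732, and 5641 and 5874, with ratios of 0.11 and 0.06 inside the spread. Egr4 read 53.3 and 74.7, and 43.7 and 16.7, with ratios of 0.49 and -1.39 against spreads of 0.54 and 1.37. The call of Egr4 under 0.5-fold was lost with the array median in place of low signals.

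The arrays of the Th2-1st pair were not level: the median probe set was higher with GATA3 siRNA, and centering the arrays on their medians lowered every Th2-1st knockdown ratio by 0.17. The centred values were 1.44 for Nr4a2, 0.74 for Nr4a1, 0.54 for Egr3, 0.47 for Egr2 and Nr4a3, -0.53 for Egr1 and -0.06 for Nab1, so that Nab1 changed sign. Of the genes called in this comparison, 64.1% were higher with GATA3 siRNA, against 51.9% after quantile normalization. The summed mast cell and basophil markers also differed with the siRNA, 316 and 112 in the Th2-1st culture and 1206 and 270 in the Th2-4th culture. In the Th2-4th culture 2 of these 4 markers were under 0.5-fold and 2, with low signals, over 2-fold. Their part in the members' ratios was not tested.

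**Figure D3:**
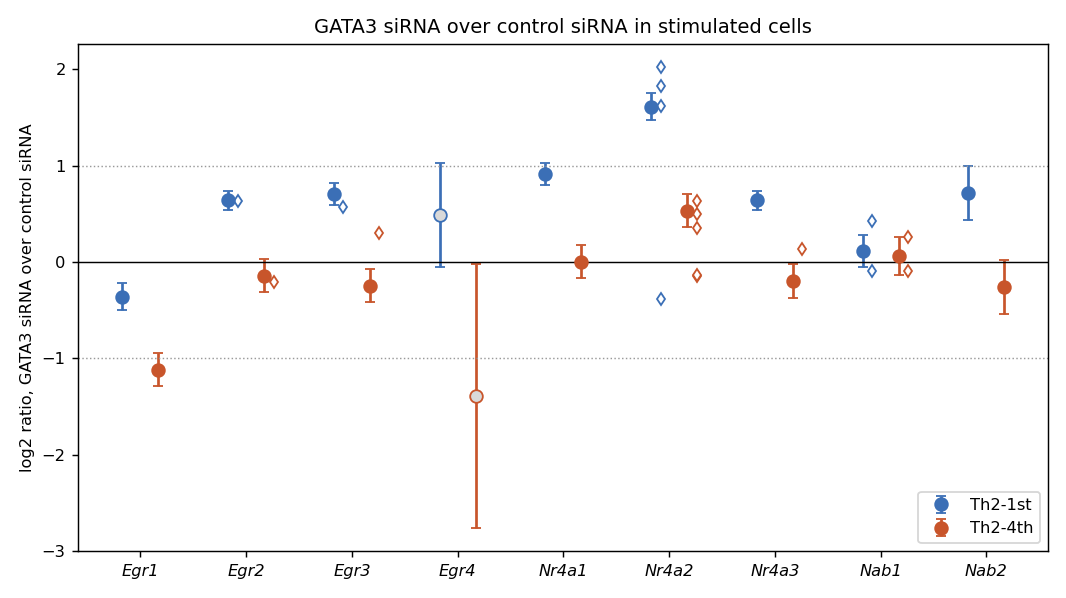
Log2 ratio of GATA3 siRNA over control siRNA in stimulated Th2-1st cells (blue) and Th2-4th cells (orange); circles are the probe set used for the gene with bars of 1 spread on each side, grey circles have a low signal on at least 1 array, diamonds are other probe sets above the array median on both arrays, and dotted lines mark 2-fold and 0.5-fold. Nr4a2 stands at 1.61 and 0.53, Egr1 at -0.36 and -1.12, and the remaining EGR and NR4A genes apart from Egr4 lie between 0.64 and 0.91 in the Th2-1st culture and between -0.25 and 0.00 in the Th2-4th culture.

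In the lists, 1 of the 30 other immediate early genes was over 2-fold in the Th2-1st culture and 2 were under 0.5-fold in the Th2-4th culture. The first was Dusp1, a phosphatase that switches off MAP kinases, which read 480 under control siRNA and 1338 under GATA3 siRNA (log2 1.48), and 0.96 in the Th2-4th culture. The others were Atf3 (-1.53) and Maff (-1.09), a small MAF factor. None of the 13 signaling factors or 7 NAB2 partners passed the threshold in either culture. Of the 17 genes linked to EGR2 and EGR3, 0 were over and 2 under the thresholds in the Th2-1st culture and 1 over and 3 under in the Th2-4th culture. Socs3 gave -1.29 in the earlier and -1.72 in the later culture, and Tnfsf10, which encodes the death ligand TRAIL, gave -1.97 and -1.01. Id3 gave -1.62 and Lag3, a checkpoint receptor gene, 1.07 in the Th2-4th culture. Of the 12 genes linked to NR4A factors, Ctla4 gave -1.01 in the Th2-1st culture and Tox2 and Ikzf2 each gave -1.23 in the Th2-4th culture, and 0 were over 2-fold. Ikzf2 read 86.9 under control siRNA and a low 37.0 under GATA3 siRNA there. Of all genes, 13.3% were over and 7.49% under in the Th2-1st culture, and 10.6% and 10.6% in the Th2-4th culture. The counts over 2-fold of both linked lists are below these shares, and the counts under 0.5-fold are near or above them. With lists of 17 and 12 genes these counts are small, so they are not read as a result about the lists. Elk1, Rxrb and Ikzf2 are named because they complete the list counts and were picked after their values were seen.

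The third question was how the members differed between the cultures. In unstimulated cells 3 of 9 members, Egr1, Egr3 and Nr4a3, were over 2-fold in the Th2-4th culture relative to Th2-1st cells, where 19.5% of all genes were, and 1, Egr4, was under 0.5-fold, where 12.3% were. In stimulated control cells 7 of 9 were over 2-fold, where 17.2% of all genes were, and 0 were under 0.5-fold, where 12.7% were. The exceptions were Nab1 and Egr4. The median log2 ratio of the members was 0.34 without and 1.27 with stimulation, against 0.17 and 0.10 for all genes.

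Before stimulation Egr1 read 199 in Th2-1st and 603 in the Th2-4th culture (log2 1.60, spread 0.74), and Egr3 read 207 and 590 (log2 1.51, spread 0.71). Both were above the array median in both cultures. The dimmer Egr3 probe set went the other way, at -0.26. With the mean over probe sets Egr3 came to 0.63, so its call depends on the probe set. Egr2 and Nr4a1 differed little, by 0.28 and 0.15, against spreads of 0.73 and 0.80. Nr4a2 differed by 0.99 (spread 0.78), from 69.9 to 139. The calls of Nr4a3 and Egr4 rest on low signals, and with the array median in their place both ratios became 0.25, the difference between the array medians. Nab2 was lower in the Th2-4th culture, with 154 and 95.2 (log2 -0.69, spread 0.83).

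After stimulation the ratio of Th2-4th to Th2-1st control cells was 3.63-fold for Egr1, 3.37-fold for Egr3, 2.76-fold for Nab2, 2.46-fold for Egr2, 2.40-fold for Nr4a3, 2.20-fold for Nr4a2 and 2.09-fold for Nr4a1. The spread at these signals was 0.45 to 0.61 on the log2 scale, and the log2 ratios ran from 1.06 to 1.86. The 2 Egr2 probe sets gave 1.30 and 1.31, and the bright Nr4a2 probe sets gave 0.36 to 1.31, so the call of Nr4a2 depends on the probe set. The dimmer Egr3 probe set gave 0.32, and with the mean over probe sets Egr3 came to 1.03. Nab1 read 3459 and 5641 (log2 0.71, spread 0.49). Of the 30 other immediate early genes, 10 were over 2-fold and 0 under 0.5-fold, with a median of 0.74. Among them were Fosb (2.27), Btg2 (2.15), an antiproliferative gene, and Cd69 (1.74), the early activation antigen. Of the 17 genes linked to EGR2 and EGR3, 9 were over and 1 under the thresholds without stimulation, and 8 and 0 with it. Rnf128, the gene of the anergy ubiquitin ligase GRAIL, gave 3.54 and 3.35, and Fasl gave 4.22 and 1.70. Of the 12 genes linked to NR4A factors, 5 and 2 were over and 1 and 1 under, and of the 7 NAB2 partners 0 and 0 were over and 2 and 1 under, with Mbd3, a subunit of the repressive complex, at -2.03 and -1.26. None of the 13 signaling factors passed. Beside these list counts, 19.5% of all genes were over and 12.3% under without stimulation, and 17.2% and 12.7% with it. The 7 T cell markers had a median log2 ratio of 0.74 between the stimulated cultures, with 2 over 2-fold and 0 under 0.5-fold. They did not all go one way, since Cd28 (-0.49) and Cd5 (-0.60) were lower in the Th2-4th culture. The summed mast cell and basophil markers read 609 and 811 in unstimulated and 316 and 1206 in stimulated Th2-1st and Th2-4th cells. With stimulation Mcpt8, a basophil protease gene, read 7.63 and 873 and was the only 1 of the 4 over 2-fold. Another 2 of the 4 were under 0.5-fold, from low signals, and the median log2 ratio of the list was -0.49. The higher sum is therefore that of Mcpt8 and not of the list. The part of either marker list in these ratios was not tested.

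Centering the arrays on their medians lowered all ratios between the cultures by 0.25 in unstimulated and 0.24 in stimulated cells. Of the genes called, 61.3% were higher in the Th2-4th culture without stimulation, against 47.6% after centering and 49.5% after quantile normalization. With stimulation the share was 57.5%, against 44.4% after centering. In stimulated cells 8 of 9 members were above 0 under both scalings, with medians of 1.03 and 1.14, but after centering 5 instead of 7 members were over 2-fold, since Nr4a1 came to 0.83 and Nr4a2 to 0.90. With the mean over probe sets 6 were over 2-fold, with Nr4a2 at 0.77.

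With GATA3 siRNA in both cultures, a comparison added after the values were seen, 1 of 9 members, Egr1, was over 2-fold in the Th2-4th culture, where 13.4% of all genes were, and 1, Egr4, was under 0.5-fold, where 14.3% were. The median over the members was 0.49, against -0.01 for all genes. Nr4a2 read 11130 in Th2-1st and 11583 in the Th2-4th culture (log2 0.06, spread 0.44). Its other bright probe sets gave -0.76, -0.36 and -0.38, so the value of Nr4a2 depends on the probe set. Nr4a1 read 12916 and 14355 (log2 0.15, spread 0.37). Egr2, Egr3 and Nr4a3 gave 0.52, 0.80 and 0.43, and Egr1, with 4888 and 10517, gave 1.11 (spread 0.53). The arrays behind this comparison are those of the knockdown ratios, so it restates them from the other side and is no separate evidence.

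**Figure D4:**
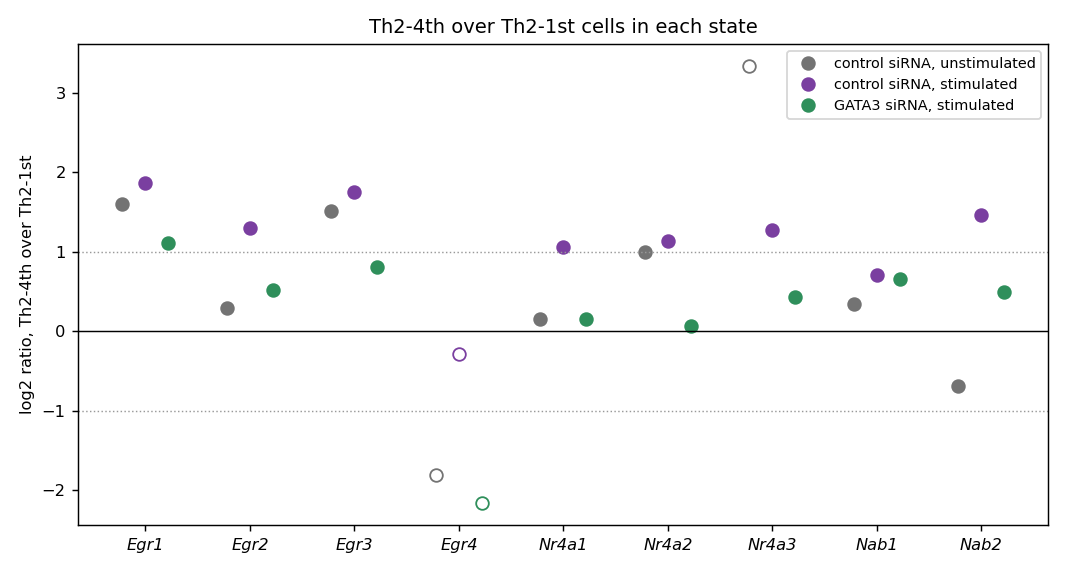
Log2 ratio of Th2-4th over Th2-1st cells for each member with control siRNA unstimulated (grey), control siRNA stimulated (purple) and GATA3 siRNA stimulated (green); open circles have a low signal on at least 1 array, and dotted lines mark 2-fold and 0.5-fold. In stimulated control cells 7 members lie above the 2-fold line, between 1.06 and 1.86. With GATA3 siRNA Nr4a1 and Nr4a2 lie at 0.15 and 0.06 and Egr1 at 1.11. Only the probe set used for each gene is drawn.

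The order of the stimulated signals summarizes how the members differ among themselves. In Egr2, Egr3 and Nr4a3 the signal was highest in Th2-4th control cells, followed by Th2-4th GATA3 siRNA, Th2-1st GATA3 siRNA and Th2-1st control cells. In Nr4a1 the 2 Th2-4th arrays differed by 0.00 and Th2-1st control cells came last. In Nr4a2 the GATA3 siRNA arrays of both cultures came ahead of the control arrays. In the probe set used these GATA3 siRNA arrays differed by less than the spread. The other bright Nr4a2 probe sets read lower in the Th2-4th than in the Th2-1st GATA3 siRNA array. Of these 6 genes, Egr1 alone had both Th2-4th arrays ahead of both Th2-1st arrays with the control above GATA3 siRNA in each culture.

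The difference between the cultures was computed for both effects. For the TCR response, Th2-4th minus Th2-1st was 2.16 for Nab2 (spread 0.59), 1.01 for Egr2 (spread 0.50) and 0.91 for Nr4a1 (spread 0.49). It was 0.26 for Egr1, 0.24 for Egr3 and 0.14 for Nr4a2, which lie within the spread of 0.45 to 0.54. The Nr4a2 value depends on the probe set and was -0.16 with the mean over probe sets. Its other bright sets gave responses of 5.73, 2.76 and 4.87 in the Th2-1st culture. In the same order they gave 4.82, 4.71 and 4.90 in the Th2-4th culture. The value of Nr4a3 was -2.07 as deposited and 1.02 with the array median in place of low signals, so its sign depends on the unstimulated signal of 6.63. Of all genes, 15.3% were over 1 and 17.6% under -1 in this difference. For the knockdown, Th2-4th minus Th2-1st was -1.08 for Nr4a2, -0.98 for Nab2, -0.95 for Egr3, -0.91 for Nr4a1, -0.84 for Nr4a3, -0.78 for Egr2 and -0.76 for Egr1, against spreads of 0.18 to 0.31. It was below 0 in all 9 members as deposited and in 8 after centering, where Nab1 changed from -0.05 to 0.16. Among them Egr4, at -1.88 (spread 1.32), rests on mostly low signals. The median over all genes was -0.05, so most genes were below 0 as well, and 17.5% of all genes were under -1. The value of Nab1 as deposited was also -0.05. The stimulated control array of each culture is the numerator of the TCR response and the denominator of the knockdown ratio, so an error on it would move both. Both of these arrays also form the ratio between the stimulated control cultures. That ratio and the knockdown difference are therefore not separate results.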

How the data were processed

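RNA from the 6 conditions was hybridized to Affymetrix mouse genome arrays. The values the authors deposited are linear intensities, 1 for each probe set, computed in the Affymetrix Expression Console. Its algorithm is not given in the sources used here. After trimming 2% of the probe sets at either end, the deposited intensities averaged 500.0 on every array, so they had been scaled. No detection call was used, and precision is limited by 1 array per condition.

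Of 45101 probe sets, 34958 named 1 gene, 932 several and 9211 none in the platform annotation. Symbols were updated through RefSeq gene IDs (34754 matched, 99.4%), which gave 18194 genes. The probe set brightest on average over the arrays was used for a gene, and all probe sets of the members were read. Ratios of array pairs were called over 2-fold or under 0.5-fold, with no filter on low signals. The spread was the median absolute deviation, multiplied by 1.4826, of log2 ratios over the 500 genes nearest in mean signal. The calls over 2-fold and under 0.5-fold, the spread and the quantile normalization were tested on simulated data. The counts of lists, ranks, alternatives and motifs were not tested in this way.

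The members and gene lists were chosen with earlier results of these data known. Named genes were the 9 members, Gata3, up to 4 genes per list with the largest ratio and a signal above the array median on both arrays, and, per member, the 3 genes of most similar pattern. Cd4, Cd5, Cd28, Mcpt8, Fos, Fosl1 and 3 genes that complete a count were named after their values were seen. Alternatives were the mean over probe sets, leaving out _s_at and _x_at probe sets, centering of the arrays, their quantile normalization, a floor or filter at the array median, and a threshold of 10 to the power 0.5 (3.16-fold). The comparison of the cultures with GATA3 siRNA was added after the values were seen. Promoters came from RefSeq windows (GRCm38.p6). Python 3.11.15, numpy 2.4.6, pandas 2.3.3 and matplotlib 3.10.9 were used.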

Additional observations from a re-analysis of the deposited data

Results flagged for a closer look

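Egr3 and Nr4a3 had knockdown ratios of opposite sign in the 2 cultures, each larger than the spread at its signal. For Egr3 the Th2-4th minus Th2-1st difference of the log2 knockdown ratio was -0.95, from 0.71 in the Th2-1st culture and -0.25 in the Th2-4th culture. For Nr4a3 it was -0.84, from 0.64 and -0.20. With 1 array per condition the difference was not tested, and neither ratio passed the 2-fold threshold in either culture. The Th2-4th values exceeded a spread of 0.17 by a small margin, and the dimmer probe set of Egr3 gave 0.57 and 0.30, with no change of sign. The mean over probe sets turned the Th2-4th ratio of Egr3 to 0.025, and its difference became -0.61. The dim probe sets of Nr4a3 gave 1.90 and -0.18 in the Th2-1st culture and 0.14 and -2.80 in the Th2-4th culture, and the mean over probe sets moved its Th2-4th ratio to -0.95 and its difference to -1.74. After quantile normalization both Th2-4th ratios lay inside that spread, at -0.12 for Egr3 and -0.09 for Nr4a3.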

How the results depend on the processing

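Of the 104 recomputed counts of members, 91 stayed within 1.5 times the reported count, and part of them could not change. Of the 360 recomputed values of single members, 320 moved by less than the spread, and part of these could not move at all. Of the others, 35 moved further and 5 turned the sign of a value past a threshold. In all, 14 changed sign: these 5, given below, 6 that moved by less than the spread, and 3 that moved further, which were Nab1 in the Th2-1st knockdown (-0.06 after centering), Nab1 in the knockdown difference (0.16 after centering) and Egr3 in the Th2-4th knockdown (0.025 with the mean over probe sets). With the threshold of 10 to the power 0.5, the members over it fell from 3 to 1 between unstimulated cultures, from 7 to 2 between stimulated cultures and from 1 to 0 for the knockdown in the Th2-1st culture, and those under it in the Th2-4th knockdown from 2 to 0. In the Th2-4th knockdown 1 member instead of 2 was under 0.5-fold after quantile normalization, when signals under the array median were raised to it (the floor) and among genes above the median on at least 1 array. Under the floor and the filter 0 instead of 1 were under 0.5-fold between unstimulated cultures. Of the culture differences under -1, that of the TCR response became 0 instead of 1 with the mean over probe sets and with the floor, and that of the knockdown 1 instead of 2 after centering and with the floor. The TCR difference of Nr4a3 changed from -2.07 to 1.05 with the mean over probe sets and to 1.02 with the floor. With the floor, Egr4 changed to -0.026 for the Th2-4th TCR response, to 0.25 between unstimulated cultures and to -0.0092 for the TCR difference; its signals were low on both arrays of each of these pairs, which is what the floor replaces. Some settings could not change every member. The probe set used for each member is neither _s_at nor _x_at, so leaving these out returned the same values and counts. The mean over probe sets cannot change Egr1, Egr4, Nr4a1 and Nab2, which have 1 probe set each. The floor acts on Egr4 and Nr4a3 only, since the other members were above the median on every array. No paired analysis was possible because each condition has 1 array. Signals near the array median limit Egr4, the unstimulated Nr4a3 values and the dimmer probe sets.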

Other observations

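For each member, the 3 genes whose centred log2 signals differed least from it over the 6 arrays were listed, as the root mean square (RMS) difference among 11185 genes. Nab2 ran most closely with Nfkbid (0.09 log2), a nuclear IκB protein gene that itself responds to the TCR, then Serpinb9b (0.24) and Tbx21 (0.27), the gene of the Th1 factor T-bet. Nfkbid read 1021, 3273 and 4725 in the Th2-1st culture and 641, 7627 and 7431 in the Th2-4th culture, and like Nab2 it was lower in unstimulated Th2-4th than in unstimulated Th2-1st cells. Egr3 ran with Gch1 (0.22), the first enzyme of tetrahydrobiopterin synthesis, which read 167, 4843 and 6984 in the Th2-1st culture and 537, 17733 and 14995 in the Th2-4th culture. Egr2 ran with Hbegf (0.25), an EGF receptor ligand, and Xcl1 (0.40), a chemokine. The unstimulated signals of Hbegf (54.4 and 49.7), Xcl1 (19.0 and 47.3) and Serpinb9b (54.2 and 32.2) were under the array median. The distances to these 3 genes therefore rest in part on low signals. Egr1 ran with Gem (0.30), a small GTPase, and with Il10 (0.37).

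Nr4a1 differed by 0.43 from Csf2, the gene of GM-CSF, and by 0.48 from Il4. Nr4a2 differed by 0.51 from Cd70, the ligand of CD27. In stimulated Th2-1st cells Cd70 read 1440 under control siRNA and 5916 under GATA3 siRNA, and in the Th2-4th culture 1998 and 3944. Unstimulated Cd70 read 30.2 and 25.4, under the array median, so its distance rests in part on low signals. Nr4a3 differed by 0.53 from Ifng, but the unstimulated signals of Nr4a3 (6.63 and 67.0) and of Ifng (23.3 and 70.1) were under the array median, so this distance cannot be read closely. Among the members themselves, Nr4a1 and Nr4a2 differed by 0.42, Nr4a1 and Egr2 by 0.44, and Egr1 and Egr3 by 0.52. These distances rest on 6 arrays and are dominated by the response to the TCR. Nab1 and Egr4, which responded little or read low, had nearest genes at 0.02 (Uhmk1) and 0.18 (Traf4).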
